A study of Saccharomyces cerevisiae with 8 samples.

Results

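The native start sites of budding yeast were compared between cultures grown in SC-Leu and cultures grown in YPD. SC-Leu is synthetic complete medium without leucine, and YPD is a rich medium of yeast extract, peptone and glucose. A gene was counted as having a start peak in a library when the 5′ edge of a called CAGE-seq peak lay between 300 bp upstream and 50 bp downstream of its start codon, on its own strand, on a native nuclear chromosome of build R64 (sacCer3). CAGE-seq (cap analysis gene expression and sequencing) captures the capped 5′ ends of RNA, so its peaks lie where transcription starts. By this rule 3843 of 6002 nuclear protein-coding genes had a start peak in at least 1 of the 8 libraries, and 1190 had one in all 8. Of 24914 native nuclear peaks, 18778 (75.4%) lay at an annotated start.

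Both media were represented by 4 libraries, 2 replicate colonies from each of 2 strains. The SC-Leu cultures were strains that carried the human HPRT1 locus, or HPRT1R (the same sequence reversed but not complemented), on a circular centromeric episome of the pLM1110 vector, whose LEU2 gene is selected by medium without leucine. The YPD cultures were strains derived from these, with the same HPRT1 or HPRT1R locus integrated at YKL162C-A on chromosome XI. All strains were BY4741, a haploid of mating type a that carries his3Δ1, leu2Δ0, met15Δ0 and ura3Δ0. No culture combined the episome with YPD or the integrated locus with SC-Leu. Medium and genomic context therefore cannot be told apart in any comparison below, and p-values measure the spread between colonies of 2 strains per medium.

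In yeast, shortage of amino acids activates the kinase Gcn2, which raises translation of the transcription factor Gcn4. Gcn4 binds the sequence TGACTC ahead of many genes of amino acid synthesis, and Leu3 adds control by the leucine pathway intermediate alpha-isopropylmalate. Rich medium supplies amino acids, vitamins and nucleobases, and fast growth in glucose is known for high transcription of ribosomal, histone and glycolytic genes. The study's methods name SC-Leu as synthetic complete medium that lacks leucine, so it is not a medium without the other amino acids. Its vitamins and nucleobases are not given there. The general stress factors Msn2 and Msn4 act through a shorter element, AGGGG, at genes such as HSP12 and CTT1.

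The height of a peak was the number of extended reads stacked at its summit, per 1000000 aligned reads of the library (RPM). Libraries held an estimated 6.48 to 8.85 M (1000000) aligned reads. The lowest height at which any peak was called was 8.48 to 9.65 RPM on the forward strand and 13.7 to 14.6 RPM on the reverse strand, and a start below such a level is not listed. Replicate colonies had log2 heights that correlated with r between 0.89 and 0.93 over the 1190 genes, which are not independent replicates. The spread depended on height. The median SD between replicate colonies was 0.67 on the log2 scale in the 298 genes of lowest mean height (24.4 to 76.9 RPM) and 0.24 in the 298 of highest mean height (312 to 35612 RPM). Peaks over the ribosomal RNA genes of chromosome XII summed to 122125 to 167751 RPM in SC-Leu and 90375 to 118502 RPM in YPD, and peaks on the synthetic loci and the vector to 28870 to 34657 RPM in SC-Leu and 6081 to 10596 RPM in YPD. Heights at gene starts are shares of the same total and their median over the 1190 genes lay at −0.13 on the log2 scale (SC-Leu minus YPD); the part of these sums in that shift was not tested.

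Libraries of both media held similar numbers of genes with a start peak, and the ranges overlapped. A library had 2326 to 2382 genes with a start peak in SC-Leu (2348 ± 24.4, SD, n = 4) and 2306 to 2588 in YPD (2415 ± 133, SD, n = 4). The difference was −67.3 genes, with a two-sided exact permutation p of 0.429, where the smallest p that 70 arrangements allow is 0.0286. Without HPRT1R YPD replicate 2, the library with 2588 genes, the difference was −9.50 genes. A start peak in all 4 SC-Leu libraries and in none of YPD was found for 6 genes, 0.156% of the 3843, and the opposite pattern for 6 genes, also 0.156%. The SC-Leu set includes LEU2, the marker gene of the episome. A difference of at least 3 libraries in favour of SC-Leu was found for 60 genes (1.56%) and in favour of YPD for 75 genes (1.95%).

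**Figure D1:**
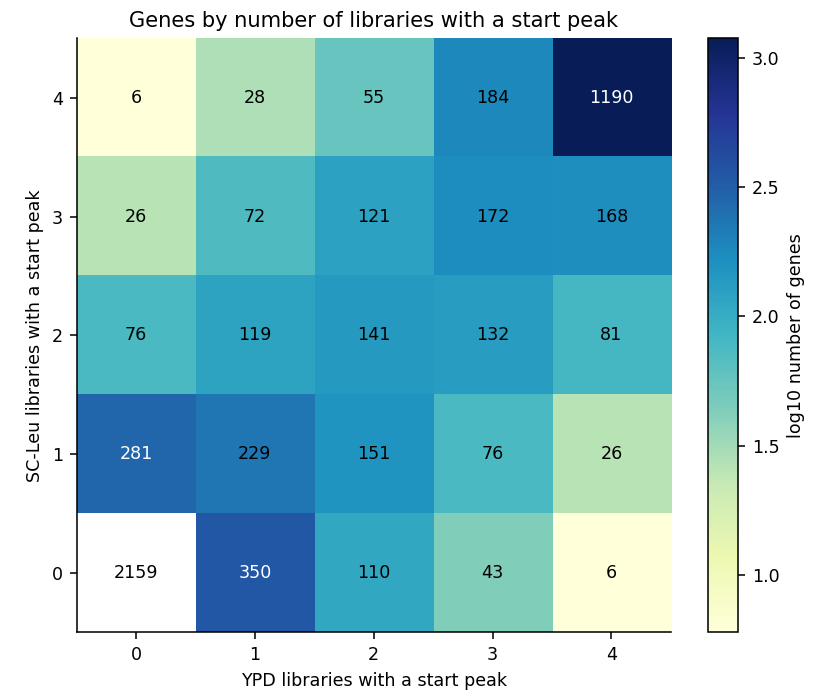
Number of protein-coding genes by how many of the 4 SC-Leu libraries (vertical axis) and of the 4 YPD libraries (horizontal axis) held a start peak; colour gives the log10 number of genes. The 1190 genes of the upper right cell had a peak in all 8 libraries, and 6 genes lie in each of the upper left and lower right corners.

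Height was tested for the 1190 genes with a peak in every library. In SC-Leu 5 genes rose (0.420%) and 1 fell (0.0840%) at an adjusted p under 0.05 in limma with Benjamini-Hochberg adjustment over all 1190 genes. The 5 were ARG4, ILV3 and BAT1 of amino acid synthesis and the stress genes HSP12 and DDR2, and the 1 was CHA1, an enzyme of serine and threonine breakdown. At an unadjusted p under 0.05 there were 176 genes, 70 higher and 106 lower in SC-Leu. A fit that let the prior variance follow mean height, chosen after seeing the data because the spread falls with height, called 23 genes higher (1.93%) and 20 lower (1.68%), all 6 genes among them. No fit without 1 library kept more than 3 of these 6 calls. ARG4 kept its call in 7 of 8 such fits, with an adjusted p of 0.0576 without HPRT1R YPD replicate 1, ILV3 and CHA1 kept theirs in 1 of 8 (without HPRT1R SC-Leu replicate 1, adjusted p 0.0358 for ILV3 and 0.00388 for CHA1), and HSP12, BAT1 and DDR2 in 0 of 8, with adjusted p between 0.0555 and 0.168. The log2 differences of the 6 genes themselves kept their direction in all 8.

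Counting genes whose 4 SC-Leu heights all lay above or all below the 4 YPD heights gave 46 higher (3.87%) and 87 lower in SC-Leu (7.31%), and by sign alone 479 of the 1190 genes had a positive and 711 a negative difference. That split depended on scaling. With each library centred on its own median it was 66 higher and 56 lower, and scaled to the reads of the same strand 54 higher and 76 lower.

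**Figure D2:**
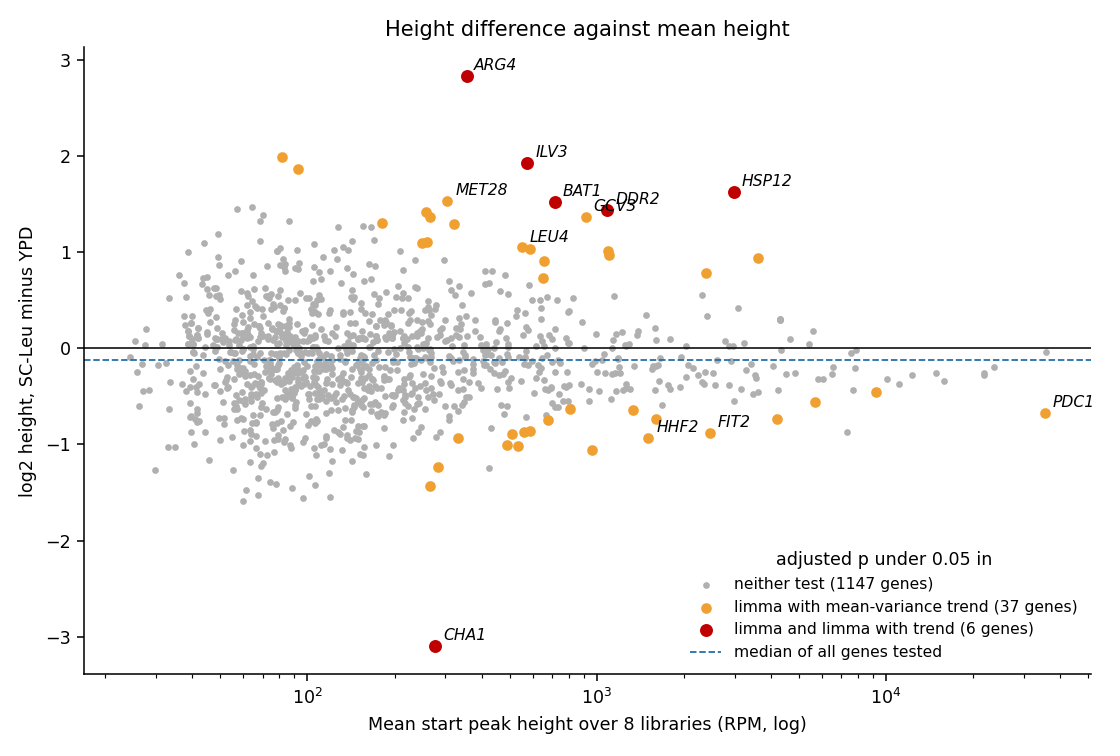
log2 difference in start peak height (SC-Leu minus YPD) of the 1190 genes against their mean height over the 8 libraries (RPM, log axis); red points passed limma, red and orange points limma with a mean-variance trend, and the dashed line is the median of all genes, −0.13. ARG4 at 2.83 and CHA1 at −3.09 lie farthest from the median.

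Several genes of amino acid synthesis were higher in SC-Leu, led by those of arginine and the branched-chain amino acids. The 8 lists of such genes, for the branched-chain amino acids, arginine, lysine, histidine, methionine, the aromatic amino acids, the serine and glycine group and the glutamate group, held 103 genes, of which 84 had a start peak and 33 were tested. In 10 of the 33 all SC-Leu heights lay above all YPD heights and in 3 they lay below, against 36 and 84 of the 1157 tested genes outside these lists. The median log2 difference of the 33 was 0.25, beside −0.13 over all genes. The 33 genes together made up 1.51 to 1.82% of the summed height of all tested starts in SC-Leu libraries and 0.944 to 1.09% in YPD libraries. Not all of the 33 are synthesis genes. They include GCV3 of glycine cleavage, with a mean of 1307 RPM in SC-Leu and 523 RPM in YPD, and the regulator MET28. The catabolic CHA1 is among the 3 that lay below. Per library, 63 to 69 of the 103 had a start peak in SC-Leu and 46 to 61 in YPD.

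Arginine synthesis held the largest rise among the tested genes. ARG4, argininosuccinate lyase, which makes arginine in the last step of the pathway, had 576, 582, 871 and 463 RPM in SC-Leu, against 75.9, 115, 85.5 and 70.5 RPM in YPD (log2 difference 2.83, SE 0.28, adjusted p 0.00648). All 4 SC-Leu libraries were above all 4 YPD libraries, and the difference was 2.63 in the HPRT1 strains and 3.03 in the HPRT1R strains. ARG1, argininosuccinate synthase, which acts one step before, had 299.9, 287, 58.9 and 167 RPM in the 4 SC-Leu libraries and no start peak in any YPD library. ARG7, an acetyltransferase of the ornithine cycle, had 100.4, 51.0, 87.4 and 68.3 RPM in the 4 SC-Leu libraries and 41.2 RPM in 1 YPD library, with none listed in the other 3. Of the 10 listed arginine genes 7 had a start peak in at least 1 library, in a mean of 2.71 SC-Leu and 1.29 YPD libraries. ARG8, an aminotransferase of ornithine synthesis, was found in 2 SC-Leu and no YPD libraries, whereas ARG56 and CPA1 had a peak in 1 library of each medium.

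The branched-chain pathway split between its 2 aminotransferases. ILV3, dihydroxyacid dehydratase, which is shared by isoleucine and valine synthesis, had 973, 1087, 732 and 849 RPM in SC-Leu, against 237, 181, 286 and 258 RPM in YPD (log2 difference 1.92, SE 0.25, adjusted p 0.0249). BAT1, the mitochondrial branched-chain aminotransferase, had 963, 1337, 1024 and 915 RPM in SC-Leu, against 396, 273, 399.6 and 409 RPM in YPD (log2 difference 1.52, SE 0.25, adjusted p 0.0431). Its cytosolic paralogue BAT2 had 231, 201, 304 and 184 RPM in SC-Leu, against 400.0, 506, 446 and 382 RPM in YPD, a log2 difference of −0.93 that passed only the fit with a mean-variance trend (adjusted p 0.044). Heights of BAT1 and of BAT2 thus did not overlap between media, in opposite directions. LEU4, alpha-isopropylmalate synthase, which commits carbon to leucine, had 729, 789.8, 643 and 799 RPM in SC-Leu, against 352, 440.0, 316 and 331 RPM in YPD (log2 difference 1.05, adjusted p 0.00396 with the trend). ILV6, the regulatory subunit of acetolactate synthase, overlapped between media, at 434 to 548 RPM in SC-Leu and 194 to 524 RPM in YPD. Each of the 11 listed genes had a peak in some library, 5 were tested, and the limma calls were 2 higher and 0 lower. LEU3, which encodes the regulator of the pathway, had a peak in 4 SC-Leu libraries (22.4 to 46.7 RPM) and 2 YPD libraries (18.5 and 30.8 RPM). Together the 5 tested genes took 0.468 to 0.607% of the summed start height in SC-Leu and 0.222 to 0.252% in YPD.

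LEU2, beta-isopropylmalate dehydrogenase, had 178, 158, 179 and 107 RPM in SC-Leu and no start peak in YPD. The chromosomal gene is deleted in BY4741 (leu2Δ0) and the episome carries LEU2 as its marker, and reads of the vector gene can align to chromosome III where the sequences are the same. Among the other altered markers, HIS3, of histidine synthesis, had 78.0, 119, 30.2 and 79.3 RPM in SC-Leu, against 1545 and 73.5 RPM in YPD, with no peak in the other 2 YPD libraries and 1 YPD library far above all others. Per the study's methods, the integrated strains were made with a HIS3 plasmid that expressed Cre recombinase. Whether any culture kept that plasmid was not tested. MET17 and URA3 had no start peak in any library, and YKL162C-A, the insertion site, is not among the annotated protein-coding genes used.

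**Figure D3:**
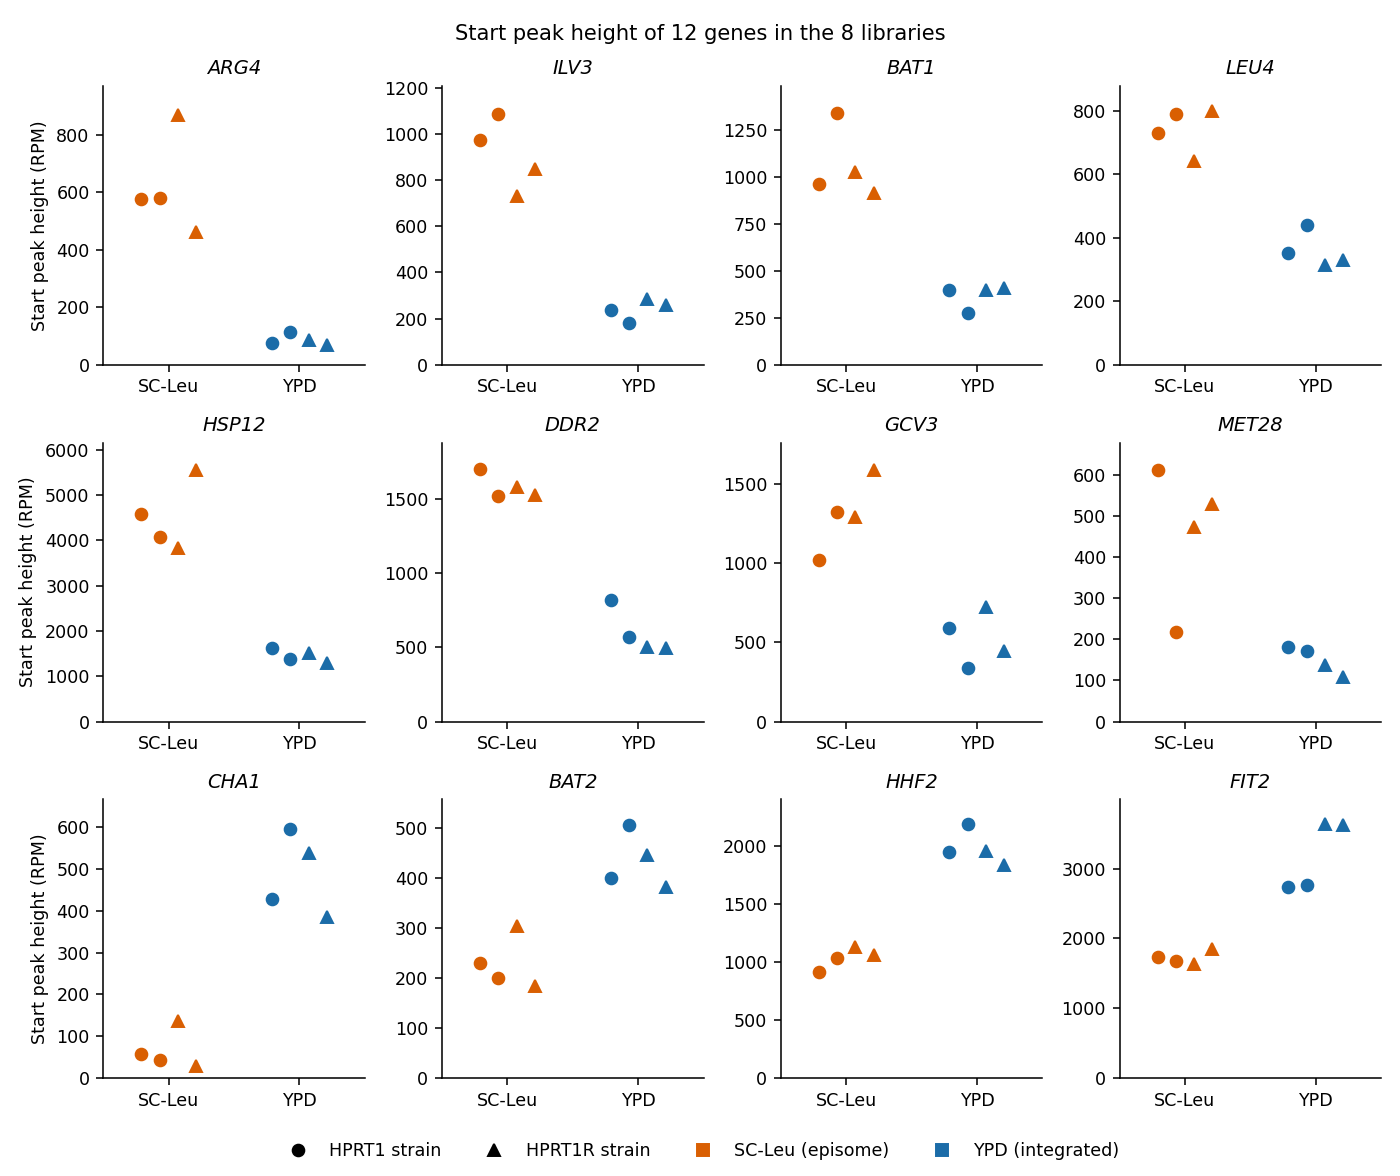
Start peak height (RPM, linear axes from 0) of 12 genes in each library, SC-Leu on the left and YPD on the right of each panel; circles are HPRT1 strains and triangles HPRT1R strains. The 2 media do not overlap in any of the 12 panels, with SC-Leu higher in the upper 8 genes and lower in CHA1, BAT2, HHF2 and FIT2.

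Genes of sulfur amino acids gave both large differences and none beyond the spread. MET6, methionine synthase, was not tested because a peak was missing from 1 library, and had 540.4, 433, 376 and 372 RPM in SC-Leu, against 56.8, 38.9 and 14.1 RPM in YPD in the other 3; with genes in at least 3 libraries of each medium its log2 difference was 3.91 (adjusted p 0.00584, limma). MET28, a subunit of the activator of sulfur amino acid genes, had 612, 218, 475 and 529 RPM in SC-Leu, against 183, 172, 139 and 109 RPM in YPD (log2 difference 1.53, adjusted p 0.0135 with the trend), with HPRT1 SC-Leu replicate 2 close to the YPD values. CYS3 and CYS4, which make cysteine from homocysteine, overlapped between media, with log2 differences of −0.50 and −0.93. SAM1, S-adenosylmethionine synthetase, also overlapped, at 0.55.

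In the serine, threonine and glycine group the largest differences had opposite signs. GCV3, the H protein of the mitochondrial glycine cleavage system, had 1019, 1326, 1292 and 1591 RPM in SC-Leu, against 590.4, 336, 722 and 444 RPM in YPD (log2 difference 1.36, adjusted p 0.00116 with the trend). HOM2, aspartic beta-semialdehyde dehydrogenase, on the path to threonine and methionine, had 367, 424, 282 and 279.6 RPM in SC-Leu, against 136, 119, 243 and 148 RPM in YPD (log2 difference 1.10, adjusted p 0.0491 with the trend). CHA1, the catabolic serine and threonine deaminase that is induced by its substrates, had 56.8, 44.4, 137 and 28.7 RPM in SC-Leu, against 427, 596, 538 and 385 RPM in YPD (log2 difference −3.09, SE 0.46, adjusted p 0.0342). Its highest SC-Leu library, HPRT1R replicate 1, was still below the lowest YPD library. CHA4, which encodes the activator of CHA1, had a peak in 4 YPD libraries (18.8 to 80.9 RPM) and in 1 SC-Leu library (21.2 RPM). Of the 9 tested genes of this group 4 had a positive and 5 a negative difference, with a median of −0.23.

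Genes of the glutamate group and of the aromatic, histidine and lysine pathways gave few differences beyond the spread. IDP1, mitochondrial isocitrate dehydrogenase, which supplies 2-oxoglutarate, had 319, 434, 305 and 341 RPM in SC-Leu, against 174, 214, 202 and 88.7 RPM in YPD (log2 difference 1.11, adjusted p 0.0466 with the trend). GLN1, glutamine synthetase, had 170.1, 157, 139.9 and 212 RPM in SC-Leu, against 235, 361, 279 and 378 RPM in YPD, lower in all 4 SC-Leu libraries without passing either test. ARO4, a first enzyme of the shikimate pathway, had 665, 747, 863 and 587 RPM in SC-Leu, against 479.6, 361, 443 and 532 RPM in YPD, and ARO3, its isozyme, overlapped between media (0.95 on the log2 scale). TRP4, of tryptophan synthesis, had a peak in 4 SC-Leu libraries at 24.8 to 72.0 RPM and in 1 YPD library at 43.9 RPM. HIS4, which catalyses 3 steps of histidine synthesis, likewise had 68.4 to 167 RPM in 4 SC-Leu libraries and 74.2 RPM in 1 YPD library. In lysine synthesis LYS12, LYS9, LYS20 and LYS4 had log2 differences of 0.82, −0.32, −0.21 and 0.18, none past a test. TAT1, a tyrosine and tryptophan permease and the only tested gene of 22 amino acid and ammonium permeases, had 87.7, 70.5, 95.2 and 115 RPM in SC-Leu, against 152, 276, 145 and 149 RPM in YPD (log2 difference −0.94). The permease genes were otherwise found in few libraries, on average 2.11 in SC-Leu and 1.61 in YPD.

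Several of the genes higher in SC-Leu held the Gcn4 sequence upstream of their start peak. In the 300 bp upstream of the start peak, TGACTC on either strand was found at 344 of the 3843 genes with a start peak (8.95%) and at 118 of the 1190 tested genes (9.92%). It was found at 3 of the 5 genes that rose (ARG4, BAT1 and ILV3), at 12 of the 46 genes without overlap in the higher direction and at 6 of the 87 in the lower direction. Among genes with a difference of at least 3 libraries it was found at 14 of the 60 in favour of SC-Leu and at 6 of the 75 in favour of YPD. Both SNZ1 and SNO1 are among the 14, and the same copies of TGACTC in their shared promoter are counted for each. BDF2 and NHP2, lower in SC-Leu by the fit with a trend, and YMD8, found in YPD alone, held TGACTC too. The runs below show matches at some of the genes higher in SC-Leu, read from the R64 (sacCer3) RefSeq sequence 5′ to 3′ in the direction of the gene, with TGACTC or its reverse complement GAGTCA in capitals.
ARG4, chrVIII:141564-141593, minus strand: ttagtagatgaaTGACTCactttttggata
ARG1, chrXV:218854-218883, plus strand: gtgattttttagTGACTCatgtcgcatttg
ARG1, chrXV:218925-218954, plus strand: tgccgtatggaaGAGTCAtttaaaggcagg
ILV3, chrX:466326-466355, minus strand: ttcctctccagaTGACTCagtaatatagta
BAT1, chrVIII:517349-517378, plus strand: attgccttcttaTGACTCaaaattctattg
GCV3, chrI:58558-58587, minus strand: cacttccgtaagGAGTCAttcagcggcgga
GCV3, chrI:58542-58571, minus strand: cattcagcggcgGAGTCActttcgctaact
HOM2, chrIV:770161-770190, plus strand: tcaagcattgatTGACTCattttcctctga
IDP1, chrIV:334715-334744, plus strand: acgcgcggatttTGACTCacataattccac
MET28, chrIX:384204-384233, minus strand: ggtcactggcgtGAGTCAaggccgggcagc
The 8 genes printed are 7 that had higher heights in every SC-Leu library and 1, ARG1, that had a peak in SC-Leu alone. The ARG4 match lay 121 bp upstream of the 5′ edge of the start peak and the ILV3 match 114 bp. The Leu3 motif, a pair of CCGG with 2 bases between, was present upstream of 10 of the 3843 genes (0.260%), among them BAT1 and LEU2. The LEU2 match is in the reference sequence of chromosome III, where the gene is deleted in BY4741, and the vector sequence was not searched. Both matches are shown with the motif in capitals.
BAT1, chrVIII:517375-517404, plus strand: attgtgtttgCCGGTACCGGcctttaagct
LEU2, chrIII:91116-91145, plus strand: ggtgagagcgCCGGAACCGGcttttcatat
A match is a description of these windows only. TGACTC was absent from the LEU4 window. CACGTG, the core bound by Cbf1 and Pho4, was found at 4.66% of the 3843 genes and at 4.79% of the 1190 tested genes. It was found at 0 of the 5 genes that rose and at 3 of the 46 without overlap in the higher direction.

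Of the vitamin B6 genes 2 had a start peak in all 4 SC-Leu libraries and in no YPD library. SNZ1 and SNO1, neighbours that share 1 divergent promoter and encode the subunits of pyridoxal phosphate synthase, were these 2. SNZ1 had 393, 298, 254 and 415 RPM in SC-Leu, the tallest of the starts found in SC-Leu alone, and SNO1 had 55.9, 92.7, 49.2 and 14.5 RPM. Of the 23 listed vitamin B6 and thiamine genes 14 had a start peak, in a mean of 1.71 SC-Leu libraries and 0.429 YPD libraries, and none was present in all 8. THI5, of thiamine precursor synthesis, had 14.6 and 9.57 RPM in 2 SC-Leu libraries and no peak in YPD. SNZ2, SNZ3, SNO3 and THI5 have close paralogues, so reads from near-identical copies could be split.

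**Figure D4:**
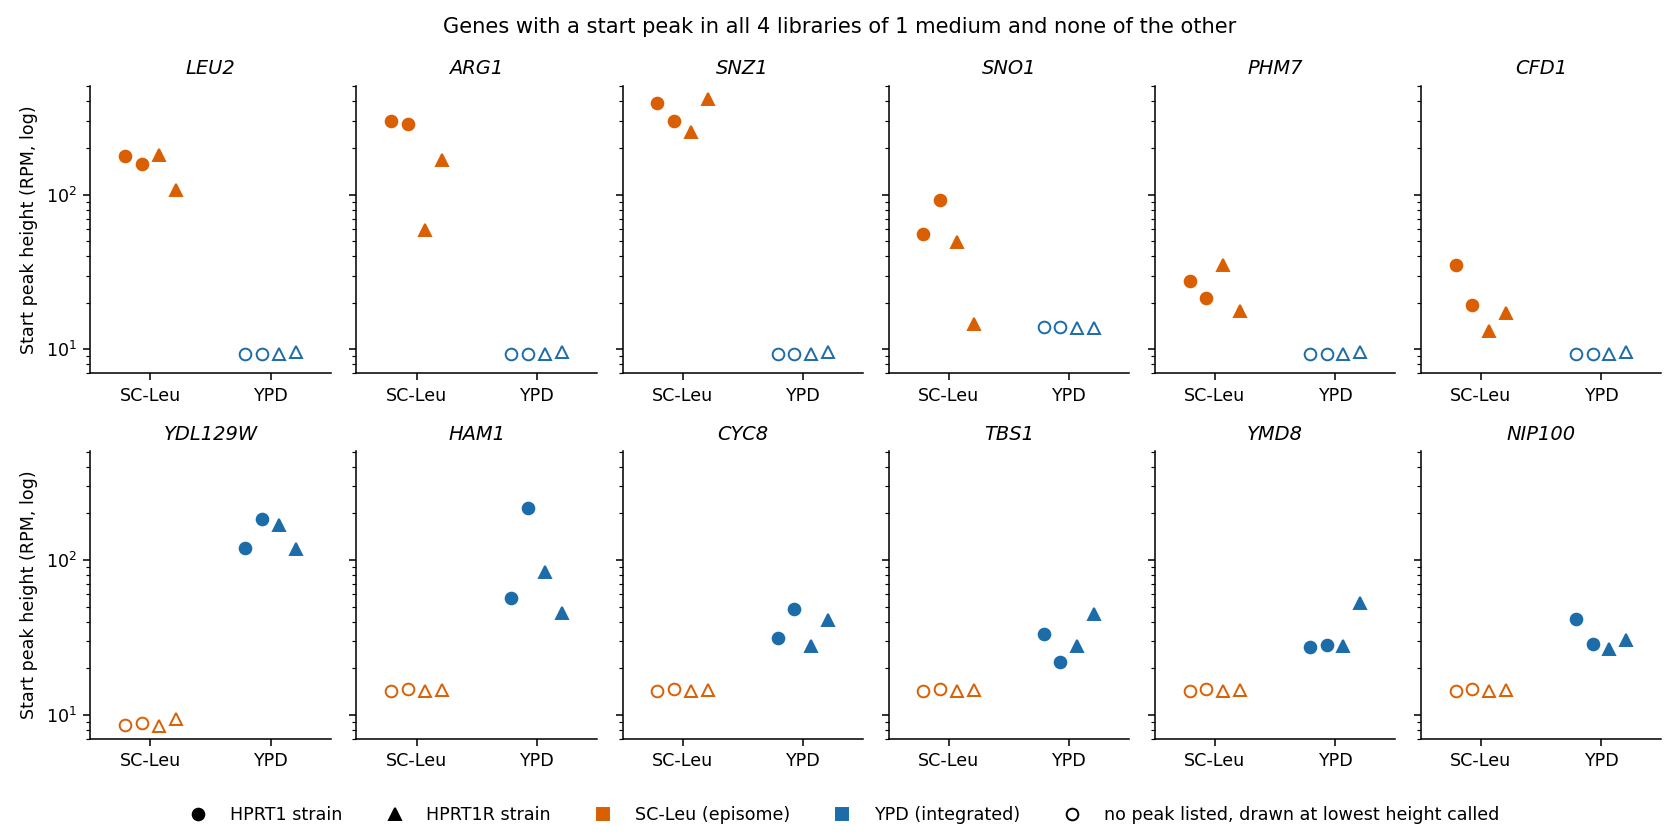
Start peak height (RPM, log axis) of the 12 genes found in all 4 libraries of 1 medium and none of the other, SC-Leu left of YPD in each panel; open symbols mark libraries with no listed peak, drawn at the lowest height called on that strand of that library. The upper row holds the 6 genes of SC-Leu and the lower row the 6 of YPD, and SNZ1, ARG1, LEU2 and YDL129W lie above 50 RPM in every library that lists them.

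PHM7 and CFD1 completed the SC-Leu set at low height. PHM7, a membrane protein gene regulated by phosphate, had 27.8, 21.6, 35.0 and 17.7 RPM, and CFD1, of cytosolic iron-sulfur cluster assembly, 35.3, 19.2, 13.2 and 17.3 RPM in SC-Leu. The genes found in YPD alone had varied functions. YDL129W, an uncharacterized gene, had 119, 185, 168 and 117 RPM in YPD, and HAM1, which hydrolyses non-canonical nucleoside triphosphates, 56.9, 217, 84.1 and 45.6 RPM. CYC8, a subunit of the general corepressor, had 31.2, 48.5, 27.7 and 40.7 RPM, TBS1, a zinc cluster protein gene, 33.3, 22.0, 27.7 and 44.9 RPM, YMD8, a putative transporter gene, 27.4, 28.4, 27.7 and 52.9 RPM and NIP100, of the dynactin complex, 41.4, 28.8, 26.5 and 30.4 RPM. In none of the 12 genes did another same-strand peak overlap the start window in the libraries without a start peak. Heights of CFD1, PHM7, CYC8, TBS1, YMD8 and NIP100 stayed at or below 52.9 RPM, not far above the lowest height called, so that the size of the difference is not known. SNO1, on the reverse strand, had 14.5 RPM in HPRT1R SC-Leu replicate 2, where the lowest height called on that strand was 14.3 RPM.

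The stress genes HSP12 and DDR2 rose in SC-Leu, whereas of the other chaperone genes none passed a test. HSP12, a small membrane-associated stress protein, had 4573, 4069, 3823 and 5561 RPM in SC-Leu, against 1632, 1371, 1512 and 1287 RPM in YPD (log2 difference 1.63, SE 0.23, adjusted p 0.0284). DDR2, a gene induced by many stresses, had 1701, 1520.2, 1581 and 1529 RPM in SC-Leu, against 818, 569, 501 and 495 RPM in YPD (log2 difference 1.44, SE 0.23, adjusted p 0.0407). SPI1, a cell wall protein induced by weak acid and by entry into stationary phase, had 3912, 5033, 5652 and 4299 RPM in SC-Leu, against 3153, 2176, 2463 and 2085 RPM in YPD (log2 difference 0.94, adjusted p 0.00194 with the trend). Neither medium overlapped the other in these 3 genes. CTT1, cytosolic catalase, had 168, 85.5, 113 and 117 RPM in SC-Leu, against 101, 34.9, 32.3 and 42.3 RPM in YPD and overlapped in 1 library. AHA1, a co-chaperone of Hsp90, had 61.4, 90.5, 170.5 and 85.9 RPM in SC-Leu, against 39.9, 19.9, 55.4 and 39.5 RPM in YPD, and HSP30 and HSP104 had log2 differences of −0.90 and −1.24, with overlap. Of 19 tested heat shock and chaperone genes 4 had a positive difference, beside 479 of all 1190, with a median of −0.25. In the oxidative stress list of 15 tested genes the median was −0.30. TSA1, the main cytosolic peroxiredoxin, had 1209, 840.2, 988 and 1136 RPM in SC-Leu, against 1601, 1509.9, 1759.7 and 1599 RPM in YPD (log2 difference −0.64, adjusted p 0.0333 with the trend), and PRX1, its mitochondrial relative, had 320.3, 251, 253 and 264 RPM in SC-Leu, against 197, 130.0, 127 and 174 RPM in YPD. The Msn2 and Msn4 element AGGGG was searched on both strands in the same windows. It was present at 949 of 3843 genes (24.7%) and at 344 of the 1190 tested genes (28.9%). Of the tested genes without overlap, 21 of the 46 in the higher direction and 25 of the 87 in the lower direction held it. Both stress genes that rose held it more than once, as printed with the element, or its complement CCCCT, in capitals.
HSP12, chrVI:107012-107041, plus strand: ctagatctacagCCCCTggaaaatcgtttg
HSP12, chrVI:107054-107083, plus strand: gttccggtcgtcCCCCTcttgatctgaaag
DDR2, chrXV:231986-232015, minus strand: tgttcttctaatCCCCTttctctcctaaaa
DDR2, chrXV:231941-231970, minus strand: tcttcttcttttCCCCTgtttccatttttg
DDR2, chrXV:231913-231942, minus strand: tgtcttttctcaCCCCTtatgggacatcaa

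Of 14 tested glycolytic genes 13 had a negative difference, beside 711 of all 1190, and 3 genes of glycolysis, fermentation and glycerol passed with the trend. Both depend on scaling. With each library centred on its median, the glycolytic list median went from −0.26 to −0.15. The genes lower with the trend, over all 1190, went from 20 to 9. PDC1, the main pyruvate decarboxylase, had 25767, 25873, 23284 and 34979.9 RPM in SC-Leu, against 40689.7, 43028, 45279 and 44092 RPM in YPD (log2 difference −0.67, adjusted p 0.00288 with the trend). GPP1, glycerol-3-phosphatase, had 2907, 3261, 2613 and 3899 RPM in SC-Leu, against 4303, 5482, 5656 and 5495 RPM in YPD, and TDH1, a minor glyceraldehyde-3-phosphate dehydrogenase, 1104, 1458, 945 and 1339.8 RPM in SC-Leu, against 1927, 2131, 2183 and 1741 RPM in YPD; both passed with the trend (adjusted p 0.00781 and 0.0201) and neither passed without it. TDH3, the major isozyme, ENO2, enolase, and HXK2, the main hexokinase in glucose, did not overlap between media, with log2 differences of −0.35, −0.32 and −0.57, and passed neither test. PGK1, phosphoglycerate kinase, averaged 22015 ± 2968 RPM in SC-Leu and 25137 ± 1449 RPM in YPD, and CDC19, pyruvate kinase, 19864 ± 1686 RPM in SC-Leu and 23685 ± 1041 RPM in YPD (SD, n = 4 each). Of the glycolytic genes 5 lay lower without overlap and 0 higher, where the same count over all genes was 7.31% and 3.87%. The list as a whole took 11.6 to 13.9% of the summed start height in SC-Leu and 12.5 to 13.8% in YPD, ranges that overlapped. Fermentation and glycerol genes took 4.78 to 6.45% in SC-Leu and 6.88 to 7.94% in YPD, without overlap. Of the 10 tested genes of that list 5 had a positive and 5 a negative difference, with a median of −0.004. PDC1 had by far the tallest start among them, so the summed share largely follows this gene. ADH5, a minor alcohol dehydrogenase of that list, had 165, 177, 178 and 213 RPM in SC-Leu, against 111, 52.0, 113 and 100.4 RPM in YPD, higher in every SC-Leu library without passing a test.

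Genes of high-affinity glucose transport, reserve carbohydrates and the citric acid cycle held 0 calls. HXT7, a high-affinity glucose transporter repressed by glucose, had 133, 84.6, 72.9 and 75.1 RPM in SC-Leu, against 42.4, 16.2, 23.4 and 65.0 RPM in YPD, although its start has a near-identical copy elsewhere. GLC3, the glycogen branching enzyme, overlapped at 371 to 764 RPM in SC-Leu and 205 to 547 RPM in YPD. The 9 tested genes of reserve carbohydrates and the 13 of the citric acid and glyoxylate cycles had median log2 differences of 0.30 and 0.26, with 0 calls by either test. LSC2, succinyl-CoA ligase, was the only one of these 22 without overlap, at 410.5, 484, 421 and 436 RPM in SC-Leu, against 334, 318, 214 and 325 RPM in YPD. The 18 tested genes of the respiratory chain and ATP synthase had a median of −0.11, equal to that of all genes within 0.02.

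Of the 10 histone genes 9 were tested and all 9 had a negative difference, the median was −0.50, and 4 lay lower without overlap, while 4 passed with the trend. Over all 1190 genes 711 were negative, the median was −0.13 and 7.31% lay lower without overlap, a share that depended on scaling as given above. HHF2, 1 of 2 genes for histone H4, had 914, 1038, 1129 and 1064 RPM in SC-Leu, against 1949, 2188, 1953 and 1837 RPM in YPD (log2 difference −0.94, adjusted p 0.00116 with the trend). HHF1, the other H4 gene, had 355, 465, 477 and 379.5 RPM in SC-Leu, against 776, 747, 725 and 779 RPM in YPD, and HTB2, for histone H2B, had 406, 238, 372 and 278 RPM in SC-Leu, against 487, 740.0, 875 and 516 RPM in YPD. HHT1, for histone H3, overlapped between media (−0.60). The 9 genes took 1.49 to 2% of the summed start height in SC-Leu and 2.05 to 2.31% in YPD, without overlap.

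Most ribosome biogenesis and translation genes had negative differences, and few passed a test. Over all 1190 genes 479 had a positive difference, 7.31% lay lower without overlap and 3.87% higher, and centring each library on its median reduced the count lower from 87 to 56. In ribosome biogenesis 2 of 20 tested genes had a positive difference, 6 lay lower without overlap, 0 lay higher, and the median was −0.51. NOP1, the methyltransferase fibrillarin, had 372, 495, 229 and 350.4 RPM in SC-Leu, against 698, 805, 539.5 and 581 RPM in YPD (log2 difference −0.89, adjusted p 0.027 with the trend). NOP14, of small subunit processing, had 24.0, 75.2, 27.7 and 53.4 RPM in SC-Leu, against 77.8, 95.6, 121 and 149 RPM in YPD, and NOP16, of large subunit assembly, had 121, 132, 56.4 and 83.9 RPM in SC-Leu, against 144, 193, 196 and 291 RPM in YPD; neither passed a test. Of 15 translation factor genes 1 had a positive difference (median −0.37), and of 30 mitochondrial ribosomal protein genes 5 did (median −0.45). For the 41 tested of 138 cytosolic ribosomal protein genes the median was −0.23, with 7 lower without overlap, 0 higher and 0 calls by either test. RPS26A, with the tallest start of all genes, averaged 35262 ± 6049.9 RPM in SC-Leu and 35962 ± 4458 RPM in YPD, and RPS15 averaged 19593 ± 1321 RPM in SC-Leu and 23978 ± 3851 RPM in YPD (SD, n = 4 each). Only 72 ribosomal protein genes had a start peak; many have an intron near the start codon and reads were aligned without allowance for splicing, and many have a near-identical paralogue.

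**Figure D5:**
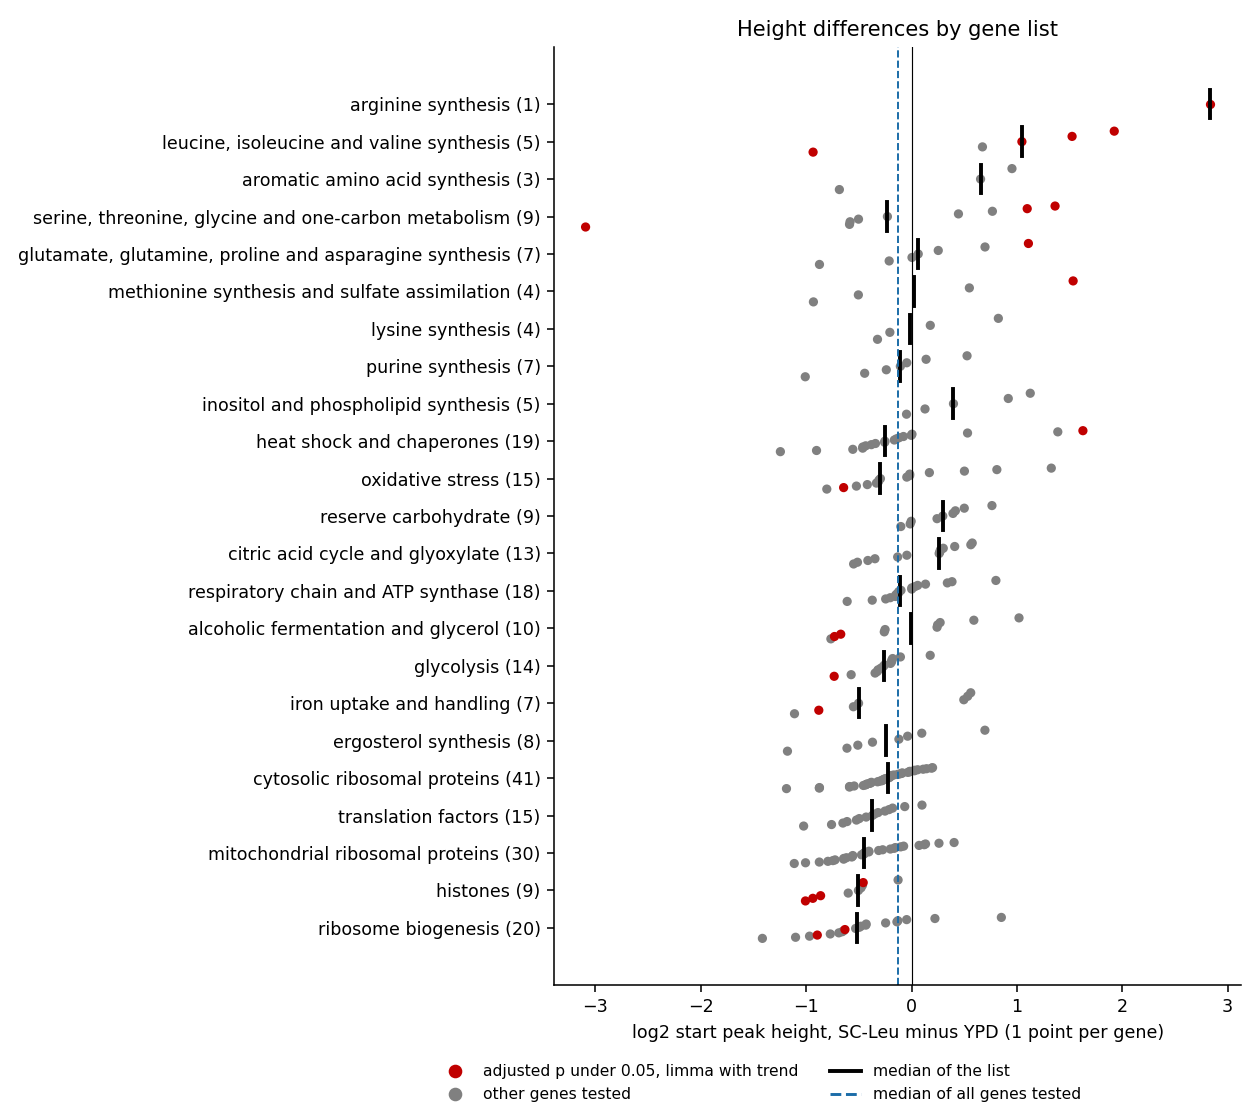
log2 difference in start peak height (SC-Leu minus YPD, horizontal axis) for each tested gene of 23 lists, with the number tested in brackets; red points passed limma with a mean-variance trend, black bars are list medians and the dashed line is the median of all 1190 genes. The medians of the lists drawn lie between 2.83 (arginine, 1 gene) and −0.51 (ribosome biogenesis).

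Iron, lipid and transport genes gave single large differences. FIT2, a cell wall mannoprotein that retains siderophore iron, had 1736, 1673, 1628 and 1848 RPM in SC-Leu, against 2741, 2769, 3641 and 3626 RPM in YPD (log2 difference −0.88, adjusted p 0.00116 with the trend), and CTR1, the high-affinity copper transporter, had 30.4 RPM in 1 SC-Leu library, against 116, 119, 241 and 175 RPM in YPD. CCC2, a copper-transporting ATPase needed for iron uptake, overlapped (−1.11), as did CUP1-1 and CUP1-2, copper metallothionein genes whose copies cannot be told apart. OPI3, a methyltransferase of phosphatidylcholine synthesis, had 1573, 1705, 2181 and 2115 RPM in SC-Leu, against 374, 141 and 198 RPM in YPD and no peak in HPRT1 YPD replicate 2; with genes in at least 3 libraries of each medium its difference was 3.06 (adjusted p 0.028, limma). ITR1, the main inositol transporter, had 220.1, 264, 162 and 281 RPM in SC-Leu, against 97.5, 158, 91.4 and 82.5 RPM in YPD (log2 difference 1.13, passing neither test), and CHO1, phosphatidylserine synthase, had a peak in 4 SC-Leu libraries, the tallest at 38.5 RPM, and in 1 YPD library at 22.4 RPM. PDR5, a multidrug exporter, had 110.2, 119.9, 96.1 and 48.1 RPM in SC-Leu, against 207, 186, 316 and 191 RPM in YPD (log2 difference −1.31), lower in all SC-Leu libraries without passing a test.

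Lists for purine and pyrimidine synthesis, NAD and biotin, nitrogen catabolism, general control regulators, phosphate, fatty acids, ergosterol, PIR proteins and the proteasome held 0 calls by either test. ADE2, of purine synthesis, had 64.3, 44.1, 77.7 and 122 RPM in SC-Leu, against 145, 121, 166 and 152 RPM in YPD, and ERG3, of ergosterol synthesis, 205, 79.2, 56.2 and 49.7 RPM in SC-Leu, against 178, 210.3, 163 and 195 RPM in YPD, the largest differences of their lists, with overlap. The 11 tested aminoacyl-tRNA synthetase genes had a median of 0.07, with GRS1, glycyl-tRNA synthetase, at 79.7, 111, 53.1 and 68.0 RPM in SC-Leu, against 144, 165, 135 and 159 RPM in YPD.

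Displaced starts, meaning a displaced 5′ edge of the called start peak, were found in few genes. The edge bounds a peak of reads extended by 200 bp and need not be the main start. The median absolute difference between media in the 5′ edge of the start peak, each medium taken at the median of its 4 libraries, was 4 bp, and 892 of 1190 genes lay within 10 bp. Between replicate colonies the median absolute difference was 6 bp. Positions did not overlap between media in 27 genes, and in 5 of these (0.420%) they differed by 50 bp or more. In COX9, MPC3 and TAT1 the edge lay farther upstream in the medium with the taller peak. PRE7 had a log2 difference in height of 0.01. Whether the edge follows peak height was not tested. PRE7, a proteasome subunit, had its edge at −54, −47, −52 and −52 bp from the start codon in SC-Leu, against −215, −154, −257 and −266 bp in YPD. The edge of TAT1 lay at −118 to −106 bp in SC-Leu and −196 to −170 bp in YPD. COX9, a subunit of cytochrome c oxidase, lay at −215 to −211 bp in SC-Leu, against −59, −59, −58 and −201 bp in YPD, where 1 YPD library lay beside the SC-Leu values. MPC3, a mitochondrial pyruvate carrier subunit, lay at −131, −131, −131 and −142 bp in SC-Leu, against −66, −54, −96 and −97 bp in YPD. RTC3, a protein gene of RNA metabolism, lay at −88 to −79 bp in SC-Leu, against −99, −250, −119 and −244 bp in YPD.

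No gene passed the test of a difference between HPRT1 and HPRT1R strains in the response to medium. The interaction of medium and locus gave 0 genes at an adjusted p under 0.05 in limma, with a lowest adjusted p of 0.309 and 87 genes at an unadjusted p under 0.05. For the 6 genes past the main test the differences in HPRT1 and HPRT1R strains were 2.31 and 1.54 for ILV3, 1.79 and 1.26 for BAT1, 1.53 and 1.72 for HSP12, 1.24 and 1.64 for DDR2 and −3.33 and −2.86 for CHA1, beside those of ARG4 above. Mating type genes were as the strain label has it in part. MFA1, MFA2, STE6 and AGA2, expressed in a cells, were listed in each of the 8 libraries at heights that overlapped between media, whereas STE2 was found in 1 library and BAR1 in none. ASG7, the other listed a-cell gene, had a peak in 2 SC-Leu libraries (30.0 and 35.9 RPM) and in 4 YPD libraries (14.4 to 65.1 RPM). Of the alpha-specific genes only MF(ALPHA)1 had a peak, of 31.2 RPM in 1 YPD library. Of the genes named above, ARG7, ARG8, ARG56, CPA1, ILV6, LEU3, HIS4, TRP4, MET6, CHA4, SNZ2, SNZ3, SNO3, THI5, OPI3, CHO1, CTR1, BDF2 and NHP2 were chosen after their values were seen, and PRE7, MPC3 and RTC3 for their displaced starts.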

How the data were processed

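CAGE-seq libraries of 8 yeast cultures were analysed from the peak lists that the authors deposited, 1 list per strand. Per the study's methods, Bowtie2 2.2.9 placed 5′ reads alone on sacCer3 joined to the synthetic locus and vector, and peaks were called per library and strand with MACS2 2.1.0, with every duplicate kept and no control; there were no molecular identifiers, so heights count PCR copies. The deposited columns held a peak score, fold enrichment over local background (a ratio), a p-value and a q-value (both as −log10).

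Summit pileups were solved from the fold enrichment and Poisson p; all 22607 peaks with a pileup under 2000 came out whole within 0.05. Library depth (6.48 to 8.85 M reads) was estimated from the lowest background of each strand. Genes came from the R64 RefSeq annotation, and no peak lay beyond an R64 chromosome end. The tallest start peak of each gene was taken in RPM; only 5 gene and library pairs held more than 1, and 276 start peaks were shared by 2 genes. Starts with a copy elsewhere (97% identity over 75 bp or more, megablast) numbered 306. log2 heights were fitted in limma 3.58.1 (R 4.3.3; trend and robust off) with medium and locus as terms and Benjamini-Hochberg adjustment; the fit was tested on simulated data. Libraries were grouped by the sample titles. Genes were named by rule: those past the adjusted p with no overlap between media (up to 12 each way), all found in 1 medium alone, up to 4 of largest difference in each of 42 gene lists, the strain markers and the 5 tallest starts. Genes named outside this rule are listed as chosen after their values were seen. A variance trend was added after seeing the data. The members, lists and motifs were chosen with earlier results of these data known. Gene lists came from textbook knowledge, and 2 names could not be matched. Other scalings, filters, windows, blocks and left-out libraries are in the closing section. Of the lists on a modified chromosome XI, those of the YPD libraries served as an alternative and those of the SC-Leu libraries were not used.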

Additional observations from a re-analysis of the deposited data

Results flagged for a closer look

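Heights of the genes named in the text, 5′ edges of the displaced starts and per-library totals were examined for 1 library far from the other 3 of its medium by Dixon's criterion. Of 198 groups of 4, 11 were marked, and chance marks about 1 in 20.

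In SC-Leu YGP1 had 1889 RPM in HPRT1 replicate 2, above 1275 to 1351 RPM in the other 3 libraries, and the start edge of MPC3 lay at −142 bp in HPRT1R replicate 2 and at −131 bp in the other 3.

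In YPD 3 of the marked values were from HPRT1 replicate 2. BAT1 had 273 RPM there, below 396 to 409 RPM in the other YPD libraries, PBI2 163 RPM, below 986 to 1099 RPM, and TAT1 276 RPM, above 145 to 152 RPM. HPRT1 YPD replicate 1 had 101 RPM for CTT1, above 32.3 to 42.3 RPM in the others, and 4303 RPM for GPP1, below 5482 to 5656 RPM. HPRT1R YPD replicate 1 had 214 RPM for LSC2, below 318 to 334 RPM in the others, and 316 RPM for PDR5, above 186 to 207 RPM. HPRT1R YPD replicate 2 had 52.9 RPM for YMD8, above 27.4 to 28.4 RPM in the others, and its COX9 edge lay at −201 bp, where the others lay at −59 to −58 bp.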

How the results depend on the processing

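Direction and significance of the main results were recomputed under each alternative. The limma counts of 5 higher and 1 lower gene stayed within 1.5 times under median-centring, same-strand scaling, genes in at least 3 libraries of each medium (6 and 1, where BAT1 and DDR2 lost their calls at an adjusted p of 0.0671 each and MET6, OPI3 and DIC1 gained one), a stricter −log10 q of 20, a window of 500 bp, summed peaks, no copies, the modified chromosome XI lists, no locus term and strain as a random block. With missing heights set at the calling limit the count lower was 3, namely YDL129W, CTR1 and SGT2, and the 5 higher were SNZ1, ARG1, MET6, LEU2 and ARG4. Of these, LEU2 is the marker gene of the episome. Leaving out each library gave 0 to 2 higher and 0 to 1 lower. Replicate numbers did not pair the libraries: same-number correlations of deviations lay between −0.08 and 0.08. With the replicate block 1 gene was higher and 0 lower, in a fit with fewer residual degrees of freedom. With the mean-variance trend, 23 higher became 12 to 20 and 20 lower became 6 to 25 on leaving out a library; 19 of the 43 genes were called without HPRT1R YPD replicate 1. Median-centring reduced the 20 lower to 9 (29 higher), and the block left 38 of the 43. Genes found in 1 medium alone numbered 9 to 17 for SC-Leu and 10 to 20 for YPD when a library was left out, where 3 libraries suffice for 1 medium, and displaced starts 5 to 9. A minimum height common to all libraries gave 4 and 7 genes found in 1 medium alone and no value for displaced starts. The cause of other changes was not tested. Genes per library kept a negative difference of −104 to −9.50 when a library was left out, with exact permutation p between 0.229 and 0.886. The interaction count was 0 in all 16 alternatives. Low starts limit the test: of the 298 genes of lowest height 0 were called by either fit.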

Other observations

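Genes outside the lists also passed the fit with a mean-variance trend and were chosen after their values were seen. RIB4, lumazine synthase of riboflavin synthesis, had 1684, 1357, 1489 and 1267 RPM in SC-Leu, against 718, 985, 615 and 602 RPM in YPD (log2 difference 1.01, adjusted p 0.00194). SPO24, a short gene expressed in sporulation, had 2587, 2887, 3423 and 3212 RPM in SC-Leu, against 1708, 1717, 1823 and 1772 RPM in YPD, and YGP1, a secreted glycoprotein induced by nutrient limitation, had 1334, 1889, 1275 and 1351 RPM in SC-Leu, against 750.2, 614, 864 and 750.4 RPM in YPD. ICY1, a gene of uncertain role whose window holds TGACTC, had 532, 806, 742 and 1102 RPM in SC-Leu, against 399, 489.8, 279 and 366 RPM in YPD. MPC3, whose start peak edge was also displaced between media, had 139, 137, 90.8 and 152 RPM in SC-Leu, against 46.6, 17.4, 32.7 and 39.6 RPM in YPD (log2 difference 1.99, adjusted p 0.0202). These 5 genes were higher in 4 of 4 SC-Leu libraries than in any YPD library. In the other direction MMF1, a mitochondrial protein involved in isoleucine metabolism and genome maintenance, had 642, 524, 716 and 622 RPM in SC-Leu, against 1324, 1415, 1170.4 and 1266 RPM in YPD (log2 difference −1.05, adjusted p 0.00121), NHP6A, a chromatin protein of the high mobility group, had 173, 166, 106 and 249 RPM in SC-Leu, against 379.7, 468, 315 and 409.8 RPM in YPD, and BDF2, a bromodomain protein gene, had 80.2, 165, 123 and 225 RPM in SC-Leu, against 273, 387, 470.2 and 392 RPM in YPD. DIC1, the mitochondrial dicarboxylate carrier of the citric acid cycle list, also chosen after its values were seen, had 302, 333, 374 and 336 RPM in SC-Leu, against 96.2, 36.1 and 26.5 RPM in YPD and no peak in HPRT1 YPD replicate 2; with genes in at least 3 libraries of each medium its adjusted p was 0.0411.

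HSP104, PBI2 and MFA2, among the 298 tallest genes, varied widely between replicate colonies and were chosen after their values were seen. The SD between replicates on the log2 scale was 1.54 for HSP104, a disaggregase of heat-damaged proteins, 1.24 for PBI2, an inhibitor of vacuolar proteinase B, and 1.16 for MFA2, the a-factor gene, where the median of these 298 was 0.24. HSP104 had 242, 72.6, 70.7 and 535 RPM in SC-Leu, against 362, 58.2, 798 and 1246 RPM in YPD, PBI2 had 886, 459, 486 and 1989 RPM in SC-Leu, against 1043, 163, 986 and 1099 RPM in YPD and MFA2 had 181, 47.7, 168 and 691 RPM in SC-Leu, against 223, 68.4, 637 and 546 RPM in YPD. HPRT1 YPD replicate 2 was the lowest library for HSP104 and PBI2, and HPRT1 SC-Leu replicate 2 for MFA2, while HPRT1R SC-Leu replicate 2 exceeded the other 3 SC-Leu libraries in all 3 genes. The highest library exceeded the lowest 21.4 times in HSP104, 12.2 times in PBI2 and 14.5 times in MFA2. None of the 3 had an adjusted p under 0.05 between media (0.542 for HSP104, 0.890 for PBI2 and 0.676 for MFA2, limma), and what they share was not tested.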
